A study of Homo sapiens with 8 samples.

Results

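In human embryonic stem cells kept in culture without DNMT3A and DNMT3B, 123 stretches of the genome were still highly methylated at passage 17 and had lost most of that methylation at passages 27 and 28. They were chosen among 105631 autosomal tiles of 1000 bases, each with 3 or more CpGs that every library covered by 5 or more reads. A tile's level is the methylated share of the reads summed over those CpGs. A read that covers several CpGs is counted once at each, so the read numbers of tiles are sums over CpGs. Of these tiles, 23237 had a level of at least 80% at passage 6, 7, 8 and also 17, and are called high tiles. The 123 falling tiles were the high tiles that lay 50 or more percentage points below passage 17 in both late libraries, which is 0.529% of the high tiles. The other 23114 high tiles serve as the comparison. Over all 105631 tiles, whatever their starting level, 909 (0.861%) passed the same fall. The fall itself chose the tiles, so it is described here and not tested.

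The cells were HUES64, an established human embryonic stem cell line, with knockouts of DNMT3A and DNMT3B at every passage sampled. Methylation was measured by reduced representation bisulfite sequencing (RRBS), which reads a CpG-rich part of the genome. There was 1 library at each of passages 6, 7, 8, 11, 13, 17, 27 and 28, so passage and library cannot be told apart, p-values over libraries measure a spread that may be technical, and whether they were drawn from 1 culture or clone is not stated in the labels. Libraries held between 19898423 reads over CpGs at passage 11 and 44599588 at passage 6, and no library of cells with both enzymes was analysed here.

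Methylation of CpGs is kept through cell division mainly by DNMT1, which restores the mark on the newly made strand. DNMT3A and DNMT3B add methyl groups where none is present, and so can repair sites that copying has missed. In cells that lack this pair, the methylation of a site depends mainly on how well it is copied.

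The falling tiles averaged a few points below the other high tiles up to passage 17, most of all at passage 11, and far below them afterwards. At passages 6, 7, 8, 11, 13, 17, 27 and 28, falling tiles averaged 89.2%, 90.2%, 89.8%, 84.5%, 87.3%, 88.7%, 24.0% and 19.8%. In the same libraries the other high tiles averaged 92.0%, 92.3%, 92.4%, 90.7%, 90.7%, 91.1%, 85.5% and 84.4%. At passages 6, 7, 8 and 17 the rule held every tile of both sets at 80% or more, so the closeness of those means was set by the choice. Between passages 17 and 27 the mean moved by -6.47 points per passage in falling tiles and -0.566 in other high tiles. The label of an abrupt fall holds only at this spacing: no library lies between passages 17 and 27, so a sudden drop and an even decline over those passages cannot be told apart.

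**Figure D1:**
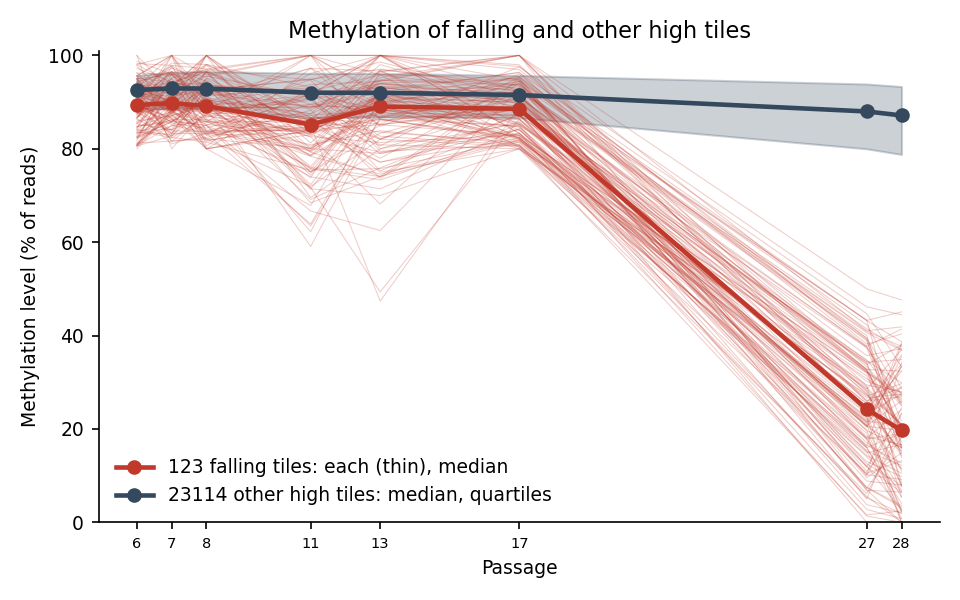
Methylation level (percent of reads, vertical axis) by passage (horizontal axis). Thin red lines are the 123 falling tiles and the thick red line their median, which was 88.5% at passage 17 and 19.7% at passage 28; the dark line and band are the median and quartiles of the 23114 other high tiles, at a median of 87.1% at passage 28.

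Falling tiles held between 212 and 2681 reads over the 8 libraries, with a median of 517, against a median of 436 in other high tiles. The 95% Wilson intervals of single tiles cover counting error only. Those of passages 27 and 28 lay below that of passage 17 in all 123 tiles, which the choice of a large fall in these same reads nearly fixes and which supports nothing further.

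Late levels spread over the whole range that the rule allowed. As the mean of passages 27 and 28, 8 tiles were under 5%, 11 between 5 and 10%, 34 between 10 and 20%, 46 between 20 and 30%, 19 between 30 and 40% and 5 between 40 and 50%. In both late libraries 12 tiles were under 10%, and 15 stood at 30% or more. A fall past 60 points was seen in 63 tiles, past 70 points in 30 and past 80 points in 11. At passage 28, 85 of the 123 tiles (69.1%) were lower than at passage 27, with a median difference of -3.89 points. In other high tiles that share was 53.6% and the median difference -0.72 points.

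**Figure D2:**
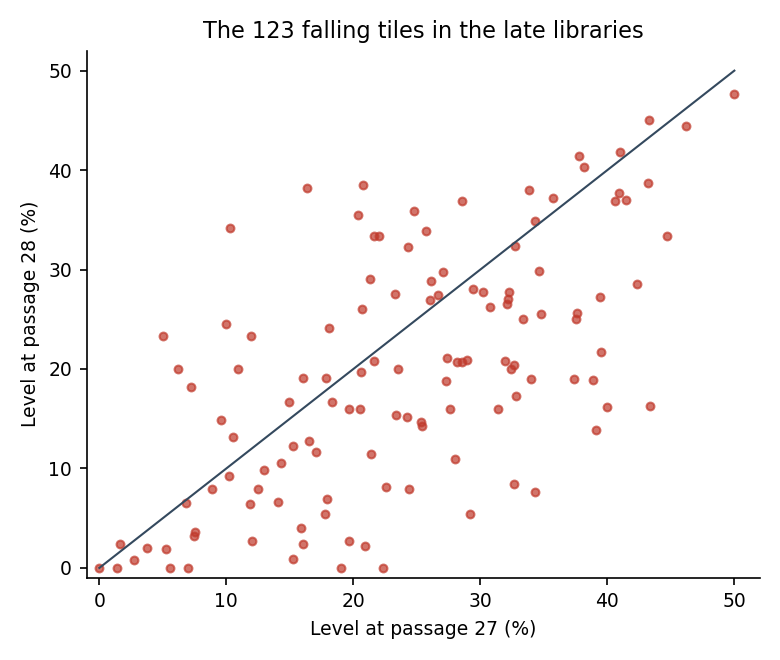
Level of each falling tile at passage 28 (vertical axis, percent) against passage 27 (horizontal axis, percent), 1 point per tile, with the line of equal levels. Points fill the range from 0 to 50% and 85 of 123 lie below the line.

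The 10 tiles with the largest falls ended at a mean late level between 0 and 12.7%. The only tile without a methylated read in either late library was chr10:679001-680000 (4 CpGs used), with 0 of 136 reads summed over CpGs. Taken as separate reads these allow a level of up to 2.21% (3 reads of the total), and more where a read spans several CpGs. The tile's levels at passages 6, 7, 8, 11, 13 and 17 were 86.0%, 87.1%, 90%, 97.3%, 89.3% and 87.8%, with 0% at both late passages. The tile just before it, chr10:678001-679000 (4 CpGs used of 57 listed in any file), fell too. Its levels were 98.0%, 100%, 95.8%, 100%, 100% and 94.7% up to passage 17, then 10.9% at passage 27 and 20% at passage 28.

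Larger numbers of CpGs gave the same picture on chromosomes 14, 17 and 21. At chr17:26634001-26635000 (15 CpGs used) levels were 92.6%, 87.9%, 92.5%, 78.4%, 85.9% and 89.1% up to passage 17, then 7.51% and 3.62%; the 517 late reads gave 5.22% (interval 3.61 to 7.49%). At chr14:102973001-102974000 (14 CpGs used) they were 92.3%, 89.8%, 83.7%, 86.6%, 94.0% and 91.5%, then 12.02% and 2.66%. At chr21:44841001-44842000 (10 CpGs used) they were 90.9%, 96.1%, 93.6%, 86.0%, 91.3% and 88.5%, then 3.79% and 2%. In all 3 tiles every library up to passage 17 was far above both late libraries.

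Falls of this size were also seen on chromosomes 4, 6 and 16 and at another place on chromosome 17. From passage 17 to the mean of the late libraries, chr16:2233001-2234000 fell by 88.6 points, chr16:86565001-86566000 by 83.6, chr6:170239001-170240000 by 83.1 and chr4:33257001-33258000 by 89.8. At chr17:78820001-78821000 the fall was 83.9 points, to 12.5% at passage 27 and 7.89% at passage 28. The chromosome 4 tile rests on 3 CpGs and 86 late reads. At chr6:170239001-170240000 the level was 84.9% at passage 17, but 63.5% at passage 11 and 86.4% at passage 13. At chr16:2233001-2234000 it was 95.2% at passage 17 and 68.2% at passage 13, so the measured course before passage 17 was not flat in either. The low levels rest on 63 reads summed over CpGs on chromosome 6 and 44 on chromosome 16. Whether these dips exceed counting error was not tested.

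Tiles with many reads or CpGs ended at a range of late levels. Of the 5 with the most reads, chr17:26634001-26635000, described above, ended lowest. At chr22:50528001-50529000 (20 CpGs used, 2681 reads) levels were 85.5%, 88.0%, 95.04%, 79.2%, 90.3% and 82.7% up to passage 17, then 21.6% and 20.8%. At chr22:46931001-46932000 (15 CpGs used) they were 93.2%, 94.3%, 92.5%, 94.8%, 98.6% and 91.2%, then 32.1% and 26.5%. In both tiles the late libraries lay close together, at levels well above 0. At chr2:225307001-225308000 (14 CpGs used) the late levels were 34.3% and 34.9%, and at chr13:20716001-20717000 (14 CpGs used) 43.2% and 38.7%, both among the tiles with the most CpGs used.

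Around the threshold the tiles form a continuum. The tiles just inside had a lesser fall of 50, 50.3 and 50.4 points, on chromosomes 9, 1 and 7. The tiles just outside had 49.9, 49.9 and 49.7 points, on chromosomes 1, 1 and 8. The first of the tiles inside, chr9:92003001-92004000, had 39 late reads, with 48.7% methylated and an interval of 33.9 to 63.8%.

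CpGs within a falling tile fell to different extents. Of the 639 CpGs used, 438 (68.5%) were themselves 50 or more points below passage 17 in both late libraries, and 7 stood at 80% or more in both. In 51 of the 123 tiles every CpG used was under 50% in both late libraries. The range between the CpGs of 1 tile, as the mean of the late libraries, had a median of 32.7 points (interquartile range 19.5 to 54.7). A single CpG can rest on 5 reads, and the share of this range that comes from counting was not tested.

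CpGs of these tiles that the rule did not use gave a course with an earlier decline. The 123 tiles hold 1133 further listed CpGs that had fewer than 5 reads in at least 1 library. Over the 8 passages their pooled level was 82.2%, 81.3%, 82.6%, 77.8%, 79.4%, 75.7%, 28.6% and 22.9%, with an interval of 74.5 to 76.8% at passage 17. In other high tiles the 156191 unused CpGs had 84.2%, 84.2%, 84.5%, 83.1%, 83.0%, 82.4%, 78.4% and 77.2% in the same libraries. The large late fall was therefore present in CpGs that did not choose the tiles, and so was a lower level at passage 17 than at passages 6 to 8. Some of these CpGs lie on the same reads as the CpGs used. A pooled level weights CpGs by their reads, so the mix of CpGs can differ between libraries. In falling tiles the unused CpGs had 5703 reads at passage 17 and 9175 at passage 28, and in other high tiles 791668 and 1031116. What a changing mix adds to these levels was not tested.

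**Figure D3:**
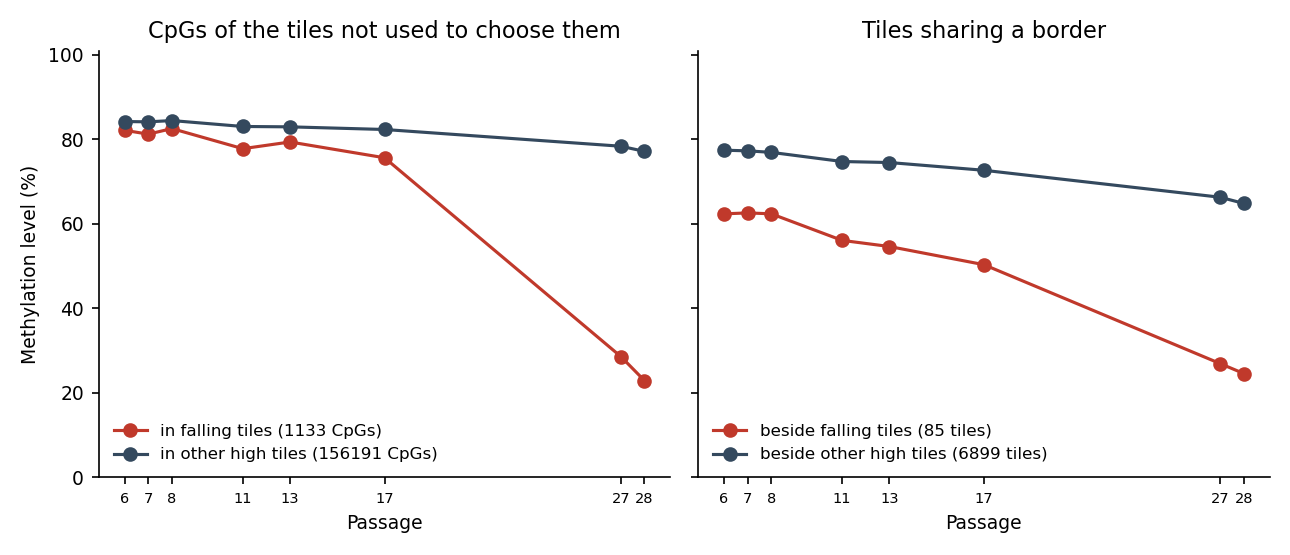
Methylation level (percent, vertical axes) by passage (horizontal axes) in CpGs and tiles that did not choose the falling tiles. Left, pooled level of CpGs not used by the rule, 75.7% in falling tiles at passage 17 and 82.4% in other high tiles; right, mean level of tiles sharing a border with a falling tile (50.4% at passage 17) or with another high tile only (72.7%).

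Passages 11 and 13 took no part in the choice of tiles and were set against passages 6 to 8. The rule held passages 6 to 8 at 80% or more in falling and other high tiles, so part of a drop after them may come from that choice. How large that part is, and whether it differs between falling and other high tiles, was not tested. From passages 6 to 8 to passages 11 and 13 the mean changed by -3.81 points in falling tiles, -1.49 in other high tiles and -2.63 in all tiles. This difference rests mostly on passage 11. At passage 11 alone the mean change was -5.19 points in falling tiles and -1.5 in other high tiles, with medians of -4.14 and -0.60. At passage 13 alone the mean change was -2.43 points in falling tiles and -1.48 in other high tiles, but the median change was -0.17 in falling tiles and -0.61 in other high tiles, so the order of the medians turned. At passage 11, 90 of the 123 falling tiles (73.2%) were at 80% or more, and at passage 13, 100 (81.3%) were. In other high tiles the shares were 91.7% and 92.1%. At passage 17 the rule set a floor of 80%, so no change is read there.

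In 28 of the 123 falling tiles (22.8%) both middle libraries lay below all 3 early ones, against 16.4% of other high tiles and 17.6% of all tiles. With limma on all 105631 tiles, an adjusted p under 0.05 together with a change of 10 points was reached by 0 tiles (0.0%), though simulated falls were not found by this test either. At an unadjusted p under 0.05, 13 of 123 falling tiles were lower (10.6%), against 6.09% of other high tiles and 7.38% of all tiles. A quasi-binomial fit of the reads, at the same limits, called falls in 2 of the 119 falling tiles it could test and 93 of 19765 other high tiles, against 3.8% of all tiles it tested. It tested only tiles with at least 10 methylated and 10 unmethylated reads, so tiles that stayed near full methylation were left out more often.

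Without the floor at passage 17, more tiles with deep falls were found and most stood lower by then. When passage 17 was left out of the rule and falls were taken from passage 8, 406 tiles qualified, 107 of them among the 123. At passage 17, which did not choose these 406, the median was 76.7% (interquartile range 65.8 to 83.8%), against 80.8% at passage 11 and 82.1% at passage 13. At passage 17 158 (38.9%) stood at 80% or more, 178 between 60 and 80%, 62 between 40 and 60% and 8 under 40%. These tiles were chosen on a high level at passage 8, and the part of the later difference that comes from that choice was not tested.

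Either late library alone would have chosen more tiles. With passage 27 alone, 191 high tiles lay 50 or more points below passage 17. In passage 28, which did not choose them, 123 (64.4%) passed that limit and 178 (93.2%) were at least 25 points below passage 17, with a median level of 29.0%. With passage 28 alone, 286 tiles qualified. In passage 27, 123 of these (43.0%) passed the limit and 257 (89.9%) were at least 25 points down, with a median level of 41.6%. In both directions the 123 are the falling tiles themselves, by definition. Both falls are taken from the same passage 17 level, which helped to choose the tiles, so neither late library is an independent check.

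Falling tiles lay close to chromosome ends more often than other high tiles. Distance was taken to the outermost CpG listed in any file. On chromosomes 13, 14, 15, 21 and 22, whose short arms are largely repetitive, only the long arm's end was counted. Within 5 Mb of an end were 78 of 123 falling tiles (63.4%, interval 54.6 to 71.4%), 22.4% of other high tiles and 25.1% of all tiles. Within 1 Mb were 23 falling tiles (18.7%), 6.29% of other high tiles and 6.20% of all tiles. The median distance was 3.21 Mb in falling tiles and 21.8 Mb in other high tiles. Since position has no replicate over libraries, no test was run on these shares, and neighbouring tiles are not independent.

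The share of high tiles that fell changed most at about 5 Mb. It was 1.56% of the 1477 high tiles within 1 Mb of an end, 1.39% of 1368 between 1 and 2 Mb and 1.497% of 2405 between 2 and 5 Mb. It was 0.478% of 2300 between 5 and 10 Mb, 0.316% of 3480 between 10 and 20 Mb, 0.150% of 6683 between 20 and 50 Mb and 0.235% of 5524 farther inside. Other high tiles also lost more near the ends. Their mean over passages 27 and 28 was 82.3% within 1 Mb, 81.6% between 1 and 2 Mb, 81.3% between 2 and 5 Mb and 86.6% beyond 50 Mb. At passage 17 it had been 90.8%, 91.0%, 90.8% and 91.2% in the same classes.

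The 78 tiles near ends were spread over 26 chromosome ends. The start of chromosome 7 and the far end of chromosome 21 held 7 each, and the far ends of chromosomes 9 and 22 held 6 each. By chromosome, falling tiles made up 1.94% of high tiles on chromosome 21 (7 of 360, all 7 within 5 Mb of the end), 1.16% on chromosome 22 (8 of 692) and 1.12% on chromosome 13 (7 of 625). The lowest share was 0.165% on chromosome 15 (1 of 607). Every autosome had at least 1 falling tile, and chromosome 7 had the most, 13.

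**Figure D4:**
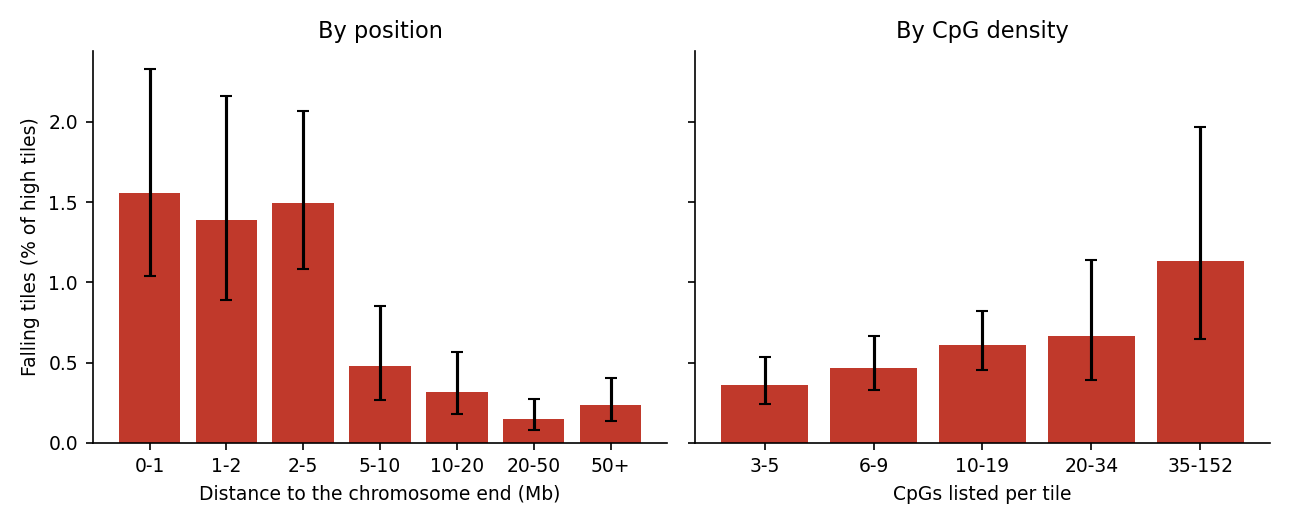
Falling tiles as a percentage of high tiles (vertical axis) by distance to the chromosome end in Mb (left) and by the number of CpGs listed per tile (right); bars are shares and whiskers 95% Wilson intervals, which cover counting only. The share was between 1.39 and 1.56% in the classes within 5 Mb of an end and 0.478% or less farther inside; it was 0.358% in tiles with 3 to 5 listed CpGs and 1.13% in those with 35 or more.

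Falling tiles held more CpGs than other high tiles. The number of CpGs listed in any file had a median of 11 per falling tile (interquartile range 6 to 17) and 8 per other high tile (5 to 14). The share of high tiles that fell was 0.358% with 3 to 5 listed CpGs, 0.468% with 6 to 9, 0.612% with 10 to 19, 0.667% with 20 to 34 and 1.13% with 35 or more. Within 5 Mb of the ends these shares were 1.01%, 0.934%, 1.89%, 1.90% and 2.82%. Farther inside they were 0.225%, 0.332%, 0.186%, 0.146% and 0.515%, with 2 and 4 tiles in the last classes, so no order by density could be read there.

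Falling tiles also started lower than other high tiles, within the limit set by the rule. The mean of passages 6 to 8 had a median of 89.6% in falling tiles and 92.7% in other high tiles. Of high tiles starting between 80 and 85%, 1.30% fell, against 0.946% between 85 and 90%, 0.449% between 90 and 95% and 0.155% at 95% or more. Reads did not order the shares: in 4 classes of summed reads from low to high they were 0.516%, 0.325%, 0.641% and 0.637%.

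Few falling tiles had another falling tile close by, though more often than other high tiles did. Only 13 other high tiles shared a border with a falling tile, so few bordering tiles could have met the rule. Another falling tile lay within 10 kb of 6 of the 123 (4.88%), in 3 pairs, while a falling tile lay that close to 0.299% of other high tiles. Within 1 Mb of another falling tile were 60 (48.8%), and 18.5% of other high tiles had one that close. Falling tiles also lay within 5 Mb of chromosome ends more often, and grouping apart from that position was not tested. Besides the chromosome 10 pair, a pair lay at chr6:18019001-18020000 (late levels 38.9% and 18.9%) and chr6:18020001-18021000 (7.23% and 18.2%), and another on chromosome 8 at 142226001 (24.2% and 15.2%) and 142229001 (32.3% and 27.7%).

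Tiles beside falling tiles lost methylation faster than tiles beside other high tiles, and did so before passage 17. There were 85 measured tiles that share a border with a falling tile and are not themselves falling, and 6899 that share one with another high tile and have no falling neighbour. Over the 8 passages, tiles beside falling tiles averaged 62.4%, 62.6%, 62.4%, 56.1%, 54.7%, 50.4%, 26.9% and 24.6%. Tiles beside other high tiles averaged 77.5%, 77.3%, 76.9%, 74.8%, 74.5%, 72.7%, 66.3% and 64.9%. Apart from the removal of falling tiles themselves, a neighbour's own level played no part in its choice. The falling tile beside it, however, was chosen by its fall from passage 17 to both late libraries. Bordering tiles may share part of such a fall, so the choice may add to the late difference between both kinds of neighbour. How much it adds was not tested, and trends over all 8 libraries include the late ones.

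The difference between both kinds of neighbour widened with passage. The slope was -1.77 points per passage beside falling tiles and -0.56 beside other high tiles, a difference of -1.21 ± 0.0871 points per passage (SE, n = 8 libraries). Pearson's r of the difference with passage was -0.985 (two-sided exact permutation p = 0.000174, adjusted p = 0.000347 over the 8 trends computed) and Spearman's rho was -0.905 (exact permutation p = 0.00456). The late libraries, whose low levels chose the falling tiles, are among the 8. The p-values of this and the other trends over 8 libraries make no allowance for that choice. Passages 6 to 17 alone leave out the late libraries but keep passage 17, from which the falls that chose the tiles were taken. Over these passages the slopes differed by -0.758 ± 0.0897 points, with r = -0.973 (exact permutation p = 0.00833, n = 6, adjusted p = 0.00952). Over those 6 libraries rho was -0.771 and did not pass (exact permutation p = 0.103).

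Neighbours that began at 60% or more showed it too. Among those at 60% or more over passages 6 to 8, 51 tiles beside falling tiles averaged 82.7% at passages 6 to 8, 71.1% at passage 17 and 39.5% over passages 27 and 28. The 5828 beside other high tiles averaged 87.0%, 82.8% and 75.5%. The difference of slopes was -1.53 points with an SE of 0.151 (8 libraries, exact permutation p = 0.000298). For these neighbours over passages 6 to 17 alone it was -0.729 points with an SE of 0.115 (6 libraries, exact permutation p of r = 0.0167). Spearman's rho there was -0.714 and did not pass (exact permutation p = 0.136). Within 5 Mb of chromosome ends, for neighbours of any early level, the difference of slopes was -1.17 points with an SE of 0.111 (8 libraries, exact permutation p = 0.000124). It rested on 68 tiles beside falling tiles, so the difference was also present among tiles near ends.

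The difference was smaller farther away. With 1 to 4 tiles between, the difference of slopes was -0.767 points with an SE of 0.0404 (8 libraries, exact permutation p = 2.5e-05, the smallest that 8 libraries allow). Among tiles starting at 60% or more, the change between passage 17 and the late mean was -31.6 points for tiles sharing a border with a falling tile, -25.3 with 1 to 4 tiles between, -17.9 with 5 to 19 between and -16.6 with 20 to 99 between. Around other high tiles it was -7.27, -9.23, -9.16 and -8.09 points at the same distances. These changes run between the same libraries whose fall chose the falling tiles, and nearby tiles may share part of that fall. How much of the difference at each distance comes from that choice was not tested.

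The early level of the neighbours differed as well. Of the 85 tiles beside falling tiles, 31 (36.5%) started at 80% or more, 40 (47.1%) between 20 and 80% and 14 (16.5%) under 20%. Of the 6899 beside other high tiles these shares were 66.7%, 25.7% and 7.60%. At passage 17, 49 of the 85 (57.6%) had already lost 10 points or more, against 21.6% of those beside other high tiles. Over passages 27 and 28, 46 (54.1%) were under 20% and 6 (7.06%) at 80% or more, against 14.2% and 45.1% beside other high tiles.

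Single neighbours show both gradual and sharp borders. Before chr22:46931001-46932000 the neighbour went down alongside it, at 89.7% at passage 17, 56.4% at passage 27 and 37.2% at passage 28, while the tile after it was nearly unmethylated in every library, at 2.76% at passage 6 and 0.946% at passage 28. After chr9:140728001-140729000, one of the most deeply read falling tiles (80.5% at passage 17, 23.3% and 27.5% late), the neighbour had 86.4% at passage 6, 58.9% at passage 17 and 16.5% at passage 28. Before chr14:102973001-102974000 the neighbour had 76.1% at passage 17 and stayed high, at 88.2% at passage 27 and 95% at passage 28.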

How the data were processed

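CpG methylation was measured by RRBS in 8 libraries, 1 per passage. Coordinates are on hg19 (per the submitters' processing notes). One deposited column, the source of all levels, holds methylated and total read counts of each CpG. The authors also deposited a score of 1000 times the methylated share of those reads, which was checked on every line and not used further. The aligner, the caller, coverage filters and duplicate removal were not given in the sources used here.

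Reads were summed over 1000-base tiles in Python 3.11.15 (numpy 2.4.6, pandas 2.3.3, scipy 1.17.1). Passages 11 and 13 were compared with passages 6 to 8 over all tiles by limma 3.58.1 (R 4.3.3) on log2 ratios of methylated to unmethylated reads, 0.5 added to each, with a variance trend over reads and Benjamini-Hochberg adjustment. A call needed an adjusted p under 0.05 and 10 points. On simulated reads this test found no call among the falls put in, at the adjusted threshold, whereas a quasi-binomial fit did find calls, so an absence of limma calls says nothing about stability. Alternatives changed the reads, CpGs, starting level, fall, tile borders, weights and libraries used. Slopes of neighbours were tested by exact permutation over library orders. Tiles named were the largest falls, the most CpGs or reads, groups under 10 kb apart, and those nearest the threshold. The tiles, their rule and all lists were chosen with earlier results of these data known. Wilson intervals are at 95% and cover counting error only, and those of levels count a read at each CpG it covers. Reads carry no molecular identifiers. Gene names and sequence were not added, since no hg19 annotation was used here.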

Additional observations from a re-analysis of the deposited data

How the results depend on the processing

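The number of falling tiles follows the limits of the rule. It was 31 at 10 reads (1.03% of high tiles), 47 with at least 5 CpGs, 371 from a starting level of 70% (0.993%), 16 from 90% (0.204%), 287 for a fall of 40 points (1.24%) and 63 for 60 points (0.271%). Leaving out single libraries from the rule gave 151 to 406 tiles and shares of 0.615 to 1.43%, the highest of both without passage 17; without passages 27 and 28 there were 286 and 191. Shifted tile borders and equal CpG weights gave 126 and 132. The median late level was 17.9% from 70%, 26.5% from 90%, 34.2% for 40 points, 13.7% for 60 points and 22.2 to 34.7% on omission of single libraries. Falling tiles within 10 kb of another made up 0% at 10 reads, with at least 5 CpGs and from 90%, 11.6% from 70%, and 3.92 to 17.2% on omission of single libraries, the highest without passage 17.

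The share within 5 Mb of a chromosome end, tried under these settings after seeing the data, was 54.0% for 40 points, 73.0% for 60 points, 53.97% with shifted borders and 54.2 to 63.2% on omission of single libraries, against 21.1 to 33.2% of other high tiles over all settings. Falling tiles held more listed CpGs in every setting run, by 1 to 4 in the median. The neighbours' difference of slopes stayed negative and passed the exact permutation test of r in every alternative, at -1.26 to -1.16 on omission of single libraries, -0.978 at 10 reads (8 tiles beside falling tiles) and -2.39 for medians. The settings near ends and over passages 6 to 17 were chosen after seeing the data.

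Falls called at passages 11 and 13 numbered 2845 by the quasi-binomial fit, 29 with an offset of 1 read and 16 at 10 reads, against 0 by limma as designed, where 7797 tiles had an unadjusted p under 0.05. Without passage 11 the median change at the middle passages was -0.17 points in falling tiles and -0.61 in other high tiles, against -3.996 and -0.91 with it. For named tiles, 90 of 100 falls under alternatives stayed within counting error and 10 moved beyond it, none under 40.9 points. Counting limits single tiles: the median interval of a falling tile reached down to 77.6% at passage 17 and up to 37.2% at passage 27. No paired analysis was possible because there was 1 library at every passage.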

Other observations

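Chromosome X was kept apart from the autosomes. By the same rule, 2 of its 444 high tiles fell after passage 17 (0.450%, 95% Wilson interval 0.124 to 1.63%), against 0.529% of autosomal high tiles.

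High autosomal tiles with a lesser fall of 20 to 50 points numbered 1406 and lay between the falling tiles and the rest in position. Their median distance to a chromosome end was 8.33 Mb, against 3.21 Mb in falling tiles and 24.99 Mb in the 14967 high tiles that stayed at 80% or more in both late libraries. Their median number of listed CpGs was 8, against 11 in falling tiles and 9 in kept tiles, so the number of CpGs did not follow the same order.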
